A study of Homo sapiens with 15 samples.

Results

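MHCC-97H is an established human hepatocellular carcinoma cell line. Its transcripts were compared between an animal model and a 3D culture model, with 3 RNA sequencing libraries of each. These are 6 of the 15 libraries of a series in which 3 libraries came from each of 5 groups. Every gene that passed a low-count filter was taken, which left 12925 of 19143 genes, and 3 libraries from a 2D model were fitted beside the animal and 3D libraries to share the estimate of the spread. The line is the only factor that all groups are labelled to share, and no drug, heat or genetic change is given for the animal, 3D or 2D libraries. The host species, the site of growth, ages, times and the matrix of the 3D model are not given in the labels. The labels call the libraries biological replicates without saying that they are separate animals or cultures, so the spread behind every p-value is that between these libraries and may be technical. The series design names RNA sequencing of all 3 models as a way to find what a 3D environment adds to tumor cells.

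Tumor cells in a solid mass are supplied with oxygen and nutrients by diffusion and, in an animal, by blood vessels. When oxygen is short, the HIF transcription factors raise genes of glucose uptake, glycolysis and angiogenesis. When membrane cholesterol is short, the SREBP factors raise the enzymes of sterol synthesis. Hepatocellular carcinoma cells derive from hepatocytes, which secrete albumin and most plasma proteins, and cultured lines often keep only a part of that program. The aryl hydrocarbon receptor AHR is a ligand-activated transcription factor whose best known targets are the cytochrome genes CYP1A1 and CYP1B1. IL4I1 is a secreted amino acid oxidase whose tryptophan products can act on AHR.

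The 3D libraries did not form a uniform group. Across genes, their departure from the animal mean had Spearman correlations with transcript GC content of 0.697 in 3D replicate 1, 0.787 in 3D replicate 2 and 0.242 in 3D replicate 3. Total counts were 12605539 to 14538432 in the animal libraries and 16632141 to 18634295 in the 3D libraries. The animal libraries had scaling factors of 1.14 to 1.16 and mitochondrial shares of 7.53 to 9.15% of counts. In 3D replicates 1 and 2 the scaling factors were 0.758 and 0.769 and the mitochondrial shares 4.57 and 2.57%, while 3D replicate 3 had 0.969 and 11.3%. Each comparison is therefore given with all 3 libraries of the 3D model and again with 3D replicate 3 alone. A change is said to have held when the same direction was called, at an adjusted p below 0.05 in edgeR's quasi-likelihood test, in both fits. With 3D replicate 3 alone its spread is assumed to equal that of the other groups, and since it enters both fits, holding is not an independent replication. Whether 3D replicate 3 or the other pair shows the 3D model better cannot be told apart.

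All 3 models carried the keratins KRT8 and KRT18. KRT18 averaged 746 CPM in the animal, 1352 CPM in the 3D and 700 CPM in the 2D libraries, and KRT8 averaged 3028 CPM in the 2D libraries. KRT8 had 2228, 2279 and 2089 CPM in the animal libraries, against 6220.4, 7919.6 and 2488 CPM in the 3D libraries, and the liver factor HNF4A had 78.4, 115 and 76.3 CPM in the animal libraries, against 118, 145 and 82.0 CPM in the 3D libraries. KRT8 was called lower with all 3D libraries (adjusted p = 0.0192 in edgeR), and neither gene was called against 3D replicate 3. KRT8, KRT18 and HNF4A belong to a list of 10 epithelial and liver line markers. Of 9 tested, 2 were called higher and 2 lower with all 3D libraries, where 18.6% and 22.9% of all tested genes were called. Other members differed, with KRT19 at log2 2.44, not called, and EPCAM at 22 reads in the animal and 12 in the 3D libraries. Levels here are CPM, each count relative to its library's scaled total, listed for replicates 1, 2 and 3 in that order.

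Of the 12925 genes tested, 2406 rose and 2961 fell in the animal libraries against the 3D libraries, or 18.6% and 22.9%, and 41.5% in either direction. At an unadjusted p below 0.05 the number was 6836. Against 3D replicate 3 alone, 3347 of 13604 tested genes rose and 3058 fell, or 24.6% and 22.5%. Both fits called 1978 genes higher, which is 15.3% of the genes tested and 82.2% of the higher calls. Both called 1997 genes lower, which is 15.5% of the genes tested and 67.4% of the lower calls. Together, 30.8% of the genes tested held. Single libraries moved these counts. Without 3D replicate 3, 5596 genes were called higher and 4536 lower, and without 3D replicate 1, 1377 were called higher and 1295 of them held. Without animal replicates 1, 2 and 3 in turn, 1537, 1556 and 1541 genes were called higher, and 1944, 2042 and 1943 lower. Without 3D replicate 1, 1984 were lower, and without 3D replicate 2, 2141 were higher and 2479 lower. Without any 1 2D library, 1879 to 1902 were higher and 2474 to 2495 lower. These fits tested 13054 to 13200 genes each. Counts of list members given below for a left-out library are to be read beside these counts over all genes, which moved too. The animal libraries all lay above the 3D libraries in 27.9% of tested genes and all below them in 22.3%. Of the called genes, 92.7% lacked overlap in the direction of the call, so lack of overlap adds little to a call. In bulk RNA, a larger share of cells that express a gene and more of its RNA per cell cannot be told apart. Of the lower calls that did not hold, 131 had a fold change of the other sign against 3D replicate 3. Those lost had a median transcript length of 2163 bases, against 2747.5 bases for the lower calls that held. PTGES2, a prostaglandin synthase, and GPX2, a glutathione peroxidase, were called lower with all 3D libraries and higher against 3D replicate 3. When each library's dependence on transcript GC content and length was first removed by an offset, 1358 of the held higher genes and 1374 of the held lower genes were still called in the same direction.

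**Figure D1:**
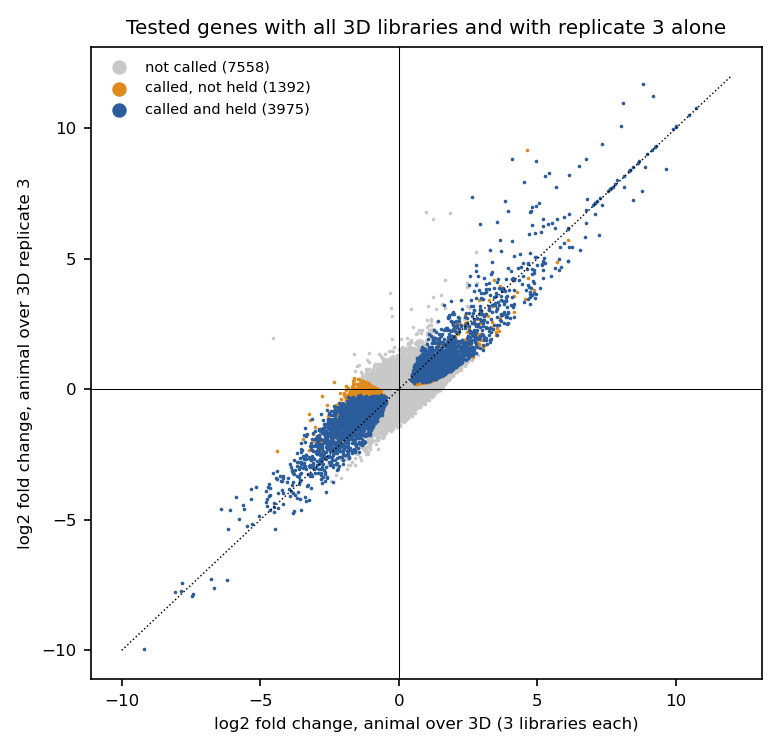
Each point is 1 of the 12925 tested genes, with its log2 fold change of animal over 3D using 3 libraries each (x axis) and using 3D replicate 3 alone (y axis). The 3975 genes called the same way in both fits lie along the dotted line of equal values, while called genes that did not hold lie nearer 0 on the y axis.

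The median fold change followed GC content when all 3D libraries were used. Of 5 equal groups of genes ordered by GC content, the lowest had a median log2 fold change of 1.09 and the highest one of -1.13. Against 3D replicate 3 the same medians were 0.21 and -0.34, so a smaller slope of the same sign was left. In the group of highest GC content 64.9% of the lower calls held, and across the 5 groups the share reached 85.2%.

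**Figure D2:**
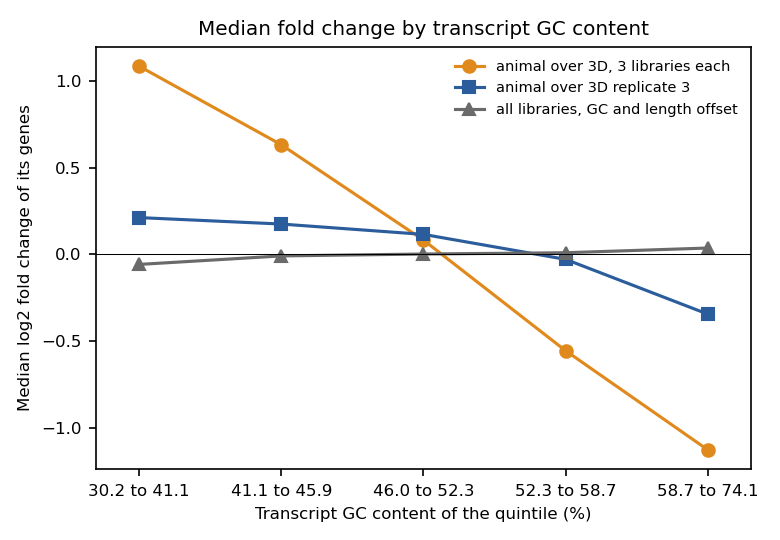
Median log2 fold change of animal over 3D (y axis) in 5 groups of tested genes ordered by transcript GC content (x axis, percent), for 3 fits. With all 3D libraries the medians run over 1.09, 0.63, 0.08, -0.56 and -1.13, and against 3D replicate 3 over 0.21, 0.18, 0.12, -0.03 and -0.34.

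Most genes of glucose transport and glycolysis fell in the animal libraries. Of 22 tested members, 17 were called lower and all of these held, against 15.5% of all tested genes that held lower, and none was called higher. Over the list the median log2 fold change was -1.48, or -0.97 against 3D replicate 3, where the medians of all tested genes were 0.10 and 0.06. The members not called were SLC2A3, a second glucose transporter, HK1, HK2, PFKM and PDK1. Their log2 fold changes were 2.00, -0.54, 0.07, -0.07 and 0.30 in that order. Against 3D replicate 3 they were 1.16, 0.17, -0.86, 0.51 and -0.83. Among the glycolysis genes, 0 were called higher with all libraries, but 1 without 3D replicate 3.

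SLC2A1, the main glucose transporter of tumor cells, had 354, 329.9 and 240.4 CPM in the animal libraries, against 1460.1, 859.6 and 1385 CPM in the 3D libraries. It was 4.01-fold lower (log2 -2.003, SE 0.25, adjusted p = 0.000950 in edgeR) and 4.52-fold lower than 3D replicate 3 (adjusted p = 0.000117). The groups did not overlap, and the 2D libraries, at 266 ± 4.56 CPM (SD), lay at the animal level. PFKFB4, which makes the activator of phosphofructokinase, had 45.4, 37.6 and 31.3 CPM in the animal libraries, against 199, 149 and 205 CPM in the 3D libraries. It was 4.85-fold lower (adjusted p = 0.000626) and 5.41-fold lower than 3D replicate 3. All 3 libraries of the 3D model lay above 100 CPM and all animal libraries below 50 CPM. ALDOA, an aldolase, had 82.9, 66.4 and 57.8 CPM in the animal libraries, against 438, 528 and 238 CPM in the 3D libraries. The lactate exporter SLC16A3 had 191, 190.4 and 166 CPM in the animal libraries, against 838, 966 and 627 CPM in the 3D libraries. Both fell (adjusted p = 0.000761 and 0.000374), and for ALDOA the 3D replicate 3 value was the lowest of its group. Of the 17 held members, 14 were also called lower after the GC and length offset.

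The promoters of PFKFB4 and SLC2A1 are printed. They are the 2 held members with the largest change, taken as the smaller of a gene's absolute log2 fold changes in both fits, with all 3D libraries and with 3D replicate 3 alone. The sequences come from RefSeq on GRCh38.p14, a later build than the hg19 of the counts. They are shown because HIF binds sites that contain ACGTG, which was searched on both strands and is printed in capitals. Neither window holds that word, which says only that these letters are absent from these 300 bases. ALDOA and PGK1, the phosphoglycerate kinase, were added after the search as members whose windows do hold it. ACGTG occurred in 8 of 21 promoters of the list (38.1%), in 26.39% of promoters of tested genes and in 21.61% of all 27305 promoters in the table. Each line reads 5′ to 3′ along the gene's strand.
PFKFB4 (chr3:48556754-48557053, minus strand): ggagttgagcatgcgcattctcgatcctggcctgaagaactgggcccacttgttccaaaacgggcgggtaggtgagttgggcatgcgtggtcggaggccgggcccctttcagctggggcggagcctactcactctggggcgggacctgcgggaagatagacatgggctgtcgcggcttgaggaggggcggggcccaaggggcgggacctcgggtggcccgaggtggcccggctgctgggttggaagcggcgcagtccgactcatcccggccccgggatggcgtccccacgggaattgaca
SLC2A1 (chr1:42958819-42959118, minus strand): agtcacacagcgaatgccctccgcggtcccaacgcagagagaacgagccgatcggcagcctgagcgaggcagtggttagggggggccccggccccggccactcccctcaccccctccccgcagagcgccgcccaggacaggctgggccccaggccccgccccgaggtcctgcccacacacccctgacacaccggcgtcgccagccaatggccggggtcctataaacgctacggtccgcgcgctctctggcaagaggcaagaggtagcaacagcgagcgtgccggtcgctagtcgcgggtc
ALDOA (chr16:30064029-30064328, plus strand): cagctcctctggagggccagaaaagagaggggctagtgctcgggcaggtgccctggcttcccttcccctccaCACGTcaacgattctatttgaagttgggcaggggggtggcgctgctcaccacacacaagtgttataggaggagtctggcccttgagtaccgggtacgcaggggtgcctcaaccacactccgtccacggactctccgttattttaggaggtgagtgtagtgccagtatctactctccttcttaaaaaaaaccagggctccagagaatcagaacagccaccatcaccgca
PGK1 (chrX:78103998-78104297, plus strand): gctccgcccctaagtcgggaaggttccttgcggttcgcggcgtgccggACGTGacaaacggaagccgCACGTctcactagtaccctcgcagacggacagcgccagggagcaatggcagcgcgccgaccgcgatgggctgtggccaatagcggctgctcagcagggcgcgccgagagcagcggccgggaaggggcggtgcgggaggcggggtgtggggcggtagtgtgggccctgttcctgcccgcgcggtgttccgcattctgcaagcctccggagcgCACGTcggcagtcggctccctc

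PGK1 had 1237, 1230.1 and 978 CPM in the animal libraries, against 5149, 3639 and 3817 CPM in the 3D libraries, 3.66-fold lower (adjusted p = 0.000606) and 3.34-fold lower than 3D replicate 3. No animal library reached a level of the 3D libraries. The window of PGK1 holds 3 matches and that of ALDOA 1. A match is a description of the letters and not evidence of binding.

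Genes of the response to low oxygen fell in part in the animal libraries, and more of them were called against 3D replicate 3. Of 24 members, 9 were called lower with all 3D libraries and 8 held, against 15.5% over all genes. Against 3D replicate 3 alone 21 were called lower, and all 24 had a negative fold change there. None was called higher in either fit. For this list the median log2 fold change was -0.92, or -1.37 against 3D replicate 3. Without 3D replicate 3 the calls were 9 lower and 4 higher, and without 3D replicate 2 they were 15 lower and 0 higher.

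ANGPTL4, a secreted inhibitor of lipoprotein lipase, had 81.4, 45.5 and 31.8 CPM in the animal libraries, against 653, 583 and 879.6 CPM in the 3D libraries. It was 13.3-fold lower (log2 -3.74, SE 0.37, adjusted p = 0.000416 in edgeR) and 16.7-fold lower than 3D replicate 3 (adjusted p = 0.000268). The lowest 3D value was above every animal value by a wide margin, and 2D cells lay at 32.0 ± 4.15 CPM (SD). DDIT4, an inhibitor of mTORC1 signaling, had 78.8, 45.3 and 35.6 CPM in the animal libraries, against 261, 228 and 252 CPM in the 3D libraries, and was 4.64-fold lower (adjusted p = 0.00113). NDRG1, a stress-induced gene, had 2299, 1731 and 1041 CPM in the animal libraries, against 5661, 5198 and 7791 CPM in the 3D libraries, and was 3.68-fold lower (adjusted p = 0.00314). The groups did not overlap for either gene. For NDRG1 the 2D libraries, at 451, 653 and 621 CPM, lay below both. ADM, the vasodilator peptide adrenomedullin, had 165, 87.8 and 92.3 CPM in the animal libraries, against 402, 241 and 426 CPM in the 3D libraries, and was 3.10-fold lower (adjusted p = 0.00422), a call that ended under the GC and length offset at log2 -0.94. VEGFA, the main angiogenic factor, named here after its values were seen, had 298, 161 and 179.7 CPM in the animal libraries, against 189.9, 144 and 764 CPM in the 3D libraries. Its single high library was 3D replicate 3, and it was not called with all 3D libraries (adjusted p = 0.281) but was called against that library alone (log2 -1.85, adjusted p = 0.00227).

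Sterol synthesis also fell. Of 24 members of cholesterol synthesis and uptake, 15 were called lower and none higher. Of these 14 held, or 58.3% of the members against 15.5% of all tested genes. Against 3D replicate 3 the count was 22 of 24. The list's median log2 fold change was -1.09, or -0.95 against 3D replicate 3. Leaving out single libraries gave 10 to 15 lower members. For the sterol genes, 0 were called higher with all libraries, but 5 without 3D replicate 3.

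DHCR7, which makes the last step to cholesterol, had 171, 110.5 and 113 CPM in the animal libraries, against 446, 744 and 446 CPM in the 3D libraries. It was 4.15-fold lower (log2 -2.05, SE 0.27, adjusted p = 0.00115 in edgeR) and 3.41-fold lower than 3D replicate 3. The 2D libraries, at 126 ± 6.50 CPM (SD), were level with the animal ones. MVD, an enzyme of the mevalonate pathway, had 17.2, 19.3 and 16.9 CPM in the animal libraries, against 76.2, 141 and 55.7 CPM in the 3D libraries, and was 5.12-fold lower (adjusted p = 0.00142). The sterol reductase TM7SF2 also fell (log2 -2.001, adjusted p = 0.00696), a call that ended under the GC and length offset at log2 -0.77.

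Fatty acid synthesis moved in part. Of 12 members, 5 held lower and 1 higher, or 41.7% and 8.33%, against 15.5% and 15.3% of all tested genes. The median log2 fold change was 0.06, or -0.19 against 3D replicate 3. SREBF1, the factor that drives lipid synthesis genes, had 69.3, 77.1 and 76.5 CPM in the animal libraries, against 269, 463 and 286 CPM in the 3D libraries, and was 4.57-fold lower (adjusted p = 0.000540 in edgeR). ACSS2, which makes acetyl-CoA from acetate, had 40.7, 37.1 and 39.9 CPM in the animal libraries, against 128, 252 and 158 CPM in the 3D libraries, and was 4.57-fold lower (adjusted p = 0.000761). The desaturase SCD had 444, 490.0 and 328 CPM in the animal libraries, against 709, 1185 and 1783 CPM in the 3D libraries, and was 2.91-fold lower (adjusted p = 0.00675). In these genes no animal library overlapped the 3D libraries. Of 16 genes of fatty acid oxidation, 6 held lower, among them the lipid droplet protein PLIN2 (2.62-fold lower, adjusted p = 0.00250), and 1 higher, the dehydrogenase ACADM, whose call ended in 4 of 19 alternatives. These are 37.5% and 6.25% of the 16 genes, against 15.5% and 15.3% of all tested genes. Of the fatty acid synthesis genes, 1 was called higher with all libraries, but 2 without 3D replicate 2 and 5 without 3D replicate 3. Of the fatty acid synthesis genes, 5 were called lower with all libraries, but 3 without animal replicate 1 or animal replicate 3. Among the fatty acid oxidation genes, 2 were called higher with all libraries, but 0 without 3D replicate 1, animal replicate 1 or animal replicate 2, 1 without 3D replicate 2 and 4 without 3D replicate 3. Of the fatty acid oxidation genes, 7 were called lower with all libraries, but 3 without any 1 animal library, 4 without 3D replicate 1 and 11 without 3D replicate 3.

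Lysosomal genes fell, with 15 of 22 called lower, 13 of them held, and 1 held higher. The shares held lower and higher were 59.1% and 4.55%, against 15.5% and 15.3% of all tested genes. The list's median log2 fold change was -1.41, or -0.88 against 3D replicate 3. GAA, which breaks down glycogen in the lysosome, had 24.3, 22.8 and 17.0 CPM in the animal libraries, against 229, 372 and 215 CPM in the 3D libraries. It was 12.7-fold lower (log2 -3.67, SE 0.27, adjusted p = 0.000295 in edgeR) and 10.1-fold lower than 3D replicate 3 (adjusted p = 2.99e-05). The 2D libraries lay between the models at 72.0 ± 1.75 CPM (SD). The protease CTSD had 469, 491 and 573 CPM in the animal libraries, against 3097, 3292 and 1536 CPM in the 3D libraries, and was 5.17-fold lower (adjusted p = 0.000884). 3D replicate 3 lay between the other 3D libraries and the animal ones, and against it CTSD was 3.02-fold lower. CTSA, a protective carboxypeptidase, and PSAP, the saposin precursor, were 3.88-fold and 2.69-fold lower (adjusted p = 0.000447 and 0.00114). ATP6V1A, a subunit of the proton pump, held higher. For the lysosomal genes, 1 was called higher with all libraries, but 0 without 3D replicate 1 or animal replicate 2 and 2 without 3D replicate 3.

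Immediate early genes, which respond within minutes to growth factors and stress, tended lower. Of 22 members, 10 were called lower and 9 held, or 40.9% against 15.5% of all tested genes, with none higher. The median log2 fold change was -0.61, or -0.49 against 3D replicate 3, but -0.03 after the GC and length offset, where 5 were lower and 4 higher. ZFP36, which destabilizes cytokine mRNAs, had 172, 137 and 138 CPM in the animal libraries, against 719.5, 464 and 628 CPM in the 3D libraries. It was 4.05-fold lower (adjusted p = 0.000467 in edgeR) with no overlap between groups. The AP-1 subunit FOSL2 had 134, 124 and 97.1 CPM in the animal libraries, against 349.8, 406 and 322 CPM in the 3D libraries, and was 3.04-fold lower (adjusted p = 0.000693). IER3, an early response gene, was 4.51-fold lower (adjusted p = 0.000416). Of the immediate early genes, 0 were called higher with all libraries, but 2 without 3D replicate 3.

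**Figure D3:**
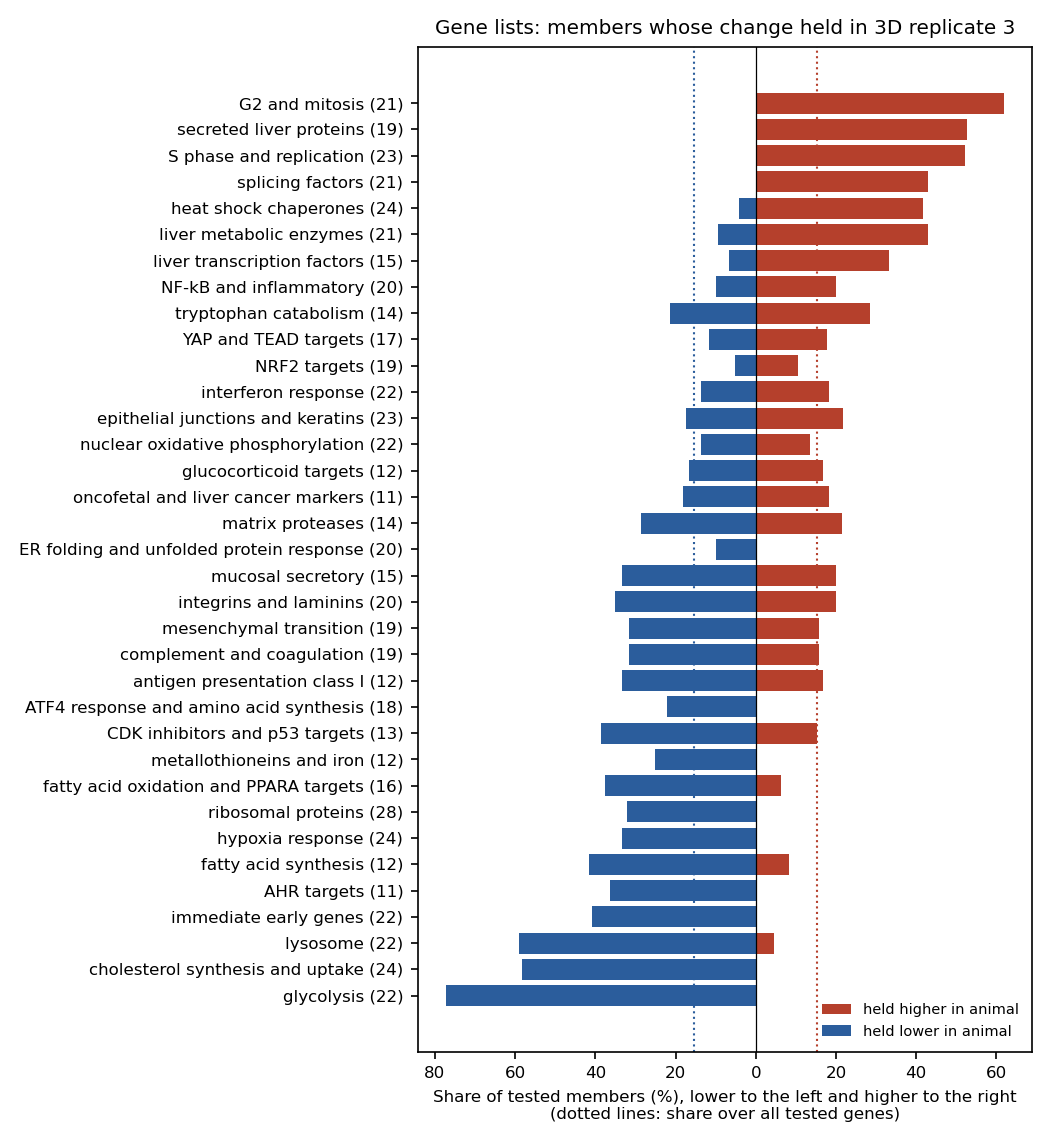
Share of the tested members of each pathway list (number tested in brackets) that held higher in animal than 3D libraries (right) or lower (left), in percent, with dotted lines at 15.3% and 15.5% for all tested genes. Glycolysis has the largest share held lower, at 77.3%, and G2 and mitosis the largest share held higher, at 61.9%.

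The AHR arm named in the series title was split between the receptor and its targets. AHR itself had 148, 108 and 141 CPM in the animal libraries, against 31.5, 18.3 and 71.5 CPM in the 3D libraries. It was 3.28-fold higher (log2 1.71, SE 0.43, adjusted p = 0.0140 in edgeR) and 1.85-fold higher than 3D replicate 3 (adjusted p = 0.00581). The groups did not overlap, but the call ended after the GC and length offset (log2 0.34) and without 3D replicate 1 (log2 1.56, adjusted p = 0.0602). Of 11 targets, 6 were called lower, 4 of which held, or 36.4% against 15.5% of all tested genes. UGT1A6, called higher, did not hold. Among the AHR targets, 1 was called higher with all libraries, but 4 without 3D replicate 3.

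CYP1A1, a cytochrome that oxidizes aromatic compounds, had 1 read in each animal library, at 0.0602, 0.0688 and 0.0606 CPM, against 26.3, 8.31 and 14.7 CPM in the 3D libraries. The ratio of pooled reads was 256 to the 3D side, with an exact Clopper-Pearson 95% interval of 87.2 to 1244 that covers counting error only. The 2D libraries lay between, at 2.14 ± 0.679 CPM (SD). CYP1B1, a related cytochrome, had 2.71, 3.03 and 2.06 CPM in the animal libraries, against 140.4, 31.4 and 409 CPM in the 3D libraries. It was 74.4-fold lower (adjusted p = 0.00139) and 158-fold lower than 3D replicate 3, which was the highest library. Every 3D and 2D library lay above every animal library, with 96.2 ± 7.597 CPM in 2D (SD). The aldehyde dehydrogenase ALDH3A1 had 414, 671 and 449.6 CPM in the animal libraries, against 5504, 6013 and 1920.1 CPM in the 3D libraries, and was 8.76-fold lower (adjusted p = 0.00126). AHRR, the AHR repressor, was 2.65-fold lower (adjusted p = 0.0132), a call that ended under the GC and length offset at log2 -0.90.

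IL4I1 had 2.47, 1.58 and 1.88 CPM in the animal libraries, against 8.98, 18.2 and 5.59 CPM in the 3D libraries. It was 5.49-fold lower (log2 -2.46, SE 0.47, adjusted p = 0.00481 in edgeR) and 2.83-fold lower than 3D replicate 3 (adjusted p = 0.0161). No animal library overlapped, and 2D had 0.268, 0.584 and 0.377 CPM. IL4I1 shares sequence positions with NUP62, a nuclear pore gene, so part of its reads is uncertain. NUP62 had 125, 128 and 137 CPM in the animal libraries, against 157, 210.2 and 93.6 CPM in the 3D libraries, was not called with all 3D libraries (log2 -0.24, adjusted p = 0.475) and was higher against 3D replicate 3 (log2 0.47, adjusted p = 0.00470). SP1, a general transcription factor, had 151, 166 and 136 CPM in the animal libraries, against 122, 99.99 and 193 CPM in the 3D libraries. It was not called with all 3D libraries (log2 0.13, adjusted p = 0.679) and was lower against 3D replicate 3 (log2 -0.36, adjusted p = 0.0303), so its sign turned with the library used.

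Of the 14 tested genes of tryptophan catabolism, 4 held higher and 3 lower, IL4I1 among the lower ones. That is 28.6% and 21.4% of them, against 15.3% and 15.5% of all tested genes. TDO2, the liver enzyme that opens the tryptophan ring, had 21.7, 15.9 and 26.4 CPM in the animal libraries, against 2.19, 1.82 and 5.53 CPM in the 3D libraries, and was 6.66-fold higher (adjusted p = 0.00234 in edgeR). The aminotransferase AADAT had 22.9, 15.8 and 28.5 CPM in the animal libraries, against 5.89, 4.61 and 9.62 CPM in the 3D libraries, and was 3.34-fold higher (adjusted p = 0.00444). HAAO, a later enzyme of the kynurenine pathway, had 1.38, 0.825 and 0.970 CPM in the animal libraries and 0 reads in every 3D library, at least 5.11-fold higher against a floor of 3 reads per library. For the tryptophan genes, 4 were called higher with all libraries, but 8 without 3D replicate 3.

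Genes of DNA replication rose in the animal libraries. Of 23 members, 12 were called higher and all of these held, against 15.3% of all genes that held higher. Against 3D replicate 3 alone 22 were higher, and all 23 had a positive fold change. Over the 23 genes the median log2 fold change was 0.83, or 1.20 against 3D replicate 3. In every fit that left out 1 library the count stayed at 10 to 13 higher. Of the 12 held, 6 were also called after the GC and length offset. Of the replication genes, 0 were called lower with all libraries, but 3 without 3D replicate 3.

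MCM10, which helps to start replication forks, had 34.1, 30.6 and 45.6 CPM in the animal libraries, against 8.002, 12.6 and 9.81 CPM in the 3D libraries. It was 3.63-fold higher (log2 1.86, SE 0.24, adjusted p = 0.00110 in edgeR) and 3.73-fold higher than 3D replicate 3. CDC6, which loads the MCM helicase, had 44.2, 50.3 and 53.4 CPM in the animal libraries, against 24.7, 24.2 and 15.8 CPM in the 3D libraries, and was 2.29-fold higher (adjusted p = 0.00366). POLA1, the catalytic subunit of primase-polymerase, had 27.4, 27.0 and 29.3 CPM in the animal libraries, against 10.04, 7.82 and 9.75 CPM in the 3D libraries, and was 3.03-fold higher (adjusted p = 0.000807). In all of these the animal libraries lay above the 3D ones without overlap, and 2D cells had 46.3 ± 0.773 CPM, 65.1 ± 1.99 CPM and 26.9 ± 0.921 CPM (SD). After the GC and length offset the fold changes of MCM10, CDC6, POLA1 and the replisome subunit GINS1 stayed positive, at log2 0.92, 0.58, 0.65 and 0.17, but were not called.

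Genes of mitosis rose as well, 13 of 21, all of them held, or 61.9% against 15.3% of all tested genes. The kinase PLK1 was called lower and did not hold. The median log2 fold change was 1.11, 0.83 against 3D replicate 3 and 0.41 after the GC and length offset. In a fit of the 6 animal and 3D libraries alone, 5 were called higher. Among the mitosis genes, 13 were called higher with all libraries, but 6 without 3D replicate 1 and 7 without animal replicate 2 or animal replicate 3. Of the mitosis genes, 1 was called lower with all libraries, but 0 without 3D replicate 1, 3D replicate 2, any 1 2D library or any 1 animal library and 3 without 3D replicate 3. MKI67, the proliferation marker Ki-67, had 186, 195 and 209 CPM in the animal libraries, against 106, 85.7 and 82.6 CPM in the 3D libraries. It was 2.15-fold higher (adjusted p = 0.00176 in edgeR), and the 2D libraries were above both, at 372 ± 13.6 CPM (SD). BUB1B, a spindle checkpoint kinase, had 48.5, 58.9 and 54.4 CPM in the animal libraries, against 18.9, 15.3 and 21.0 CPM in the 3D libraries, and was 2.93-fold higher (adjusted p = 0.000864). TOP2A, the DNA topoisomerase of dividing cells, had 170.3, 220.1 and 212 CPM in the animal libraries, against 62.0, 28.0 and 86.0 CPM in the 3D libraries, and was 3.42-fold higher (adjusted p = 0.00556), and was not called after the offset (log2 0.41). Neither gene overlapped between the animal and 3D libraries. The kinesin CENPE was near the threshold (adjusted p = 0.0450), and 9 of its 18 alternatives ended the call.

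Among 13 CDK inhibitors and p53 targets, 5 held lower and 2 higher. That is 38.5% and 15.4% of them, against 15.5% and 15.3% of all tested genes. CDKN1A, the inhibitor p21, had 55.0, 91.7 and 41.2 CPM in the animal libraries, against 427, 469.7 and 178 CPM in the 3D libraries, and was 5.72-fold lower (adjusted p = 0.00249 in edgeR) and 2.86-fold lower than 3D replicate 3. SESN2, a stress-induced sestrin, had 7.82, 13.1 and 6.73 CPM in the animal libraries, against 57.2, 53.5 and 31.0 CPM in the 3D libraries, and was 5.12-fold lower (adjusted p = 0.00143). Both lay below every 3D library. CDKN1C, the inhibitor p57, was 3.10-fold lower and ZMAT3, an RNA-binding p53 target, 3.22-fold higher (adjusted p = 0.00299 and 0.00619), and both calls ended under the GC and length offset. For the CDK inhibitors and p53 targets, 2 were called higher with all libraries, but 5 without 3D replicate 3.

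Of 24 cytosolic and mitochondrial chaperones, 10 rose and all held, and 2 were called lower, of which HSF1, the heat shock transcription factor, held. Thus 41.7% of members held higher and 4.17% lower, against 15.3% and 15.5% of all tested genes. Against 3D replicate 3, 18 were called higher. The median log2 fold change was 0.33, or 0.80 against 3D replicate 3. Of the 10 held higher, 9 were highest in animal replicate 2, and without that library 9 members were called higher. After the GC and length offset, 5 of the 10 held higher were still called, and HSF1 was not (log2 -0.41). HSP90AA1, the inducible HSP90, had 1514, 1850.2 and 1295 CPM in the animal libraries, against 341, 170.4 and 592 CPM in the 3D libraries. It was 4.22-fold higher (log2 2.08, SE 0.40, adjusted p = 0.00465 in edgeR) and 2.61-fold higher than 3D replicate 3. HSPD1, the mitochondrial chaperonin, had 566, 739 and 593 CPM in the animal libraries, against 222, 188 and 242 CPM in the 3D libraries, and was 2.91-fold higher (adjusted p = 0.000752). The co-chaperone HSPH1 had 148, 313 and 94.0 CPM in the animal libraries, against 29.1, 22.4 and 40.9 CPM in the 3D libraries, and was 5.995-fold higher (adjusted p = 0.00273). In all of these the 3D libraries lay below both the animal and the 2D libraries, which had 1338 ± 31.2 CPM, 644 ± 13.6 CPM and 155 ± 0.538 CPM (SD). HSPA1A, the inducible HSP70, named after its values were seen, had 759, 749 and 395 CPM in the animal libraries, against 529, 1021 and 326 CPM in the 3D libraries, with overlapping groups and no call in either fit (adjusted p = 0.969 and 0.0544). The HSPA1A and HSPA1B copies are near identical, so reads may be shared between them. Of the heat shock chaperones, 2 were called lower with all libraries, but 4 without 3D replicate 3.

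Of 20 genes of protein folding in the endoplasmic reticulum, 10% held lower and 0% higher, against 15.5% and 15.3% of all tested genes. With none called higher, 4 were called lower, of which HERPUD1 and SYVN1 held. The median log2 fold change was -0.05, and SYVN1 turned to 0.18 after the GC and length offset. Of 18 genes of the ATF4 response, 8 were called lower and 4 held, or 22.2% against 15.5% of all tested genes, with none higher. TRIB3, a pseudokinase induced by ATF4, had 262, 201 and 212 CPM in the animal libraries, against 986, 932 and 453 CPM in the 3D libraries, and was 3.52-fold lower (adjusted p = 0.00233 in edgeR). SLC3A2, a subunit of amino acid exchangers, was 2.35-fold lower, or 1.52-fold against 3D replicate 3 (adjusted p = 0.00652 and 0.0109). Among the ER folding genes, 0 were called higher with all libraries, but 7 without 3D replicate 3. Of the ER folding genes, 4 were called lower with all libraries, but 1 without 3D replicate 1, 3D replicate 2, animal replicate 1 or animal replicate 2, 2 without any 1 2D library and 8 without 3D replicate 3. For the ATF4 response genes, 0 were called higher with all libraries, but 2 without 3D replicate 3. Of the ATF4 response genes, 8 were called lower with all libraries, but 5 without 3D replicate 1 or animal replicate 3.

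**Figure D4:**
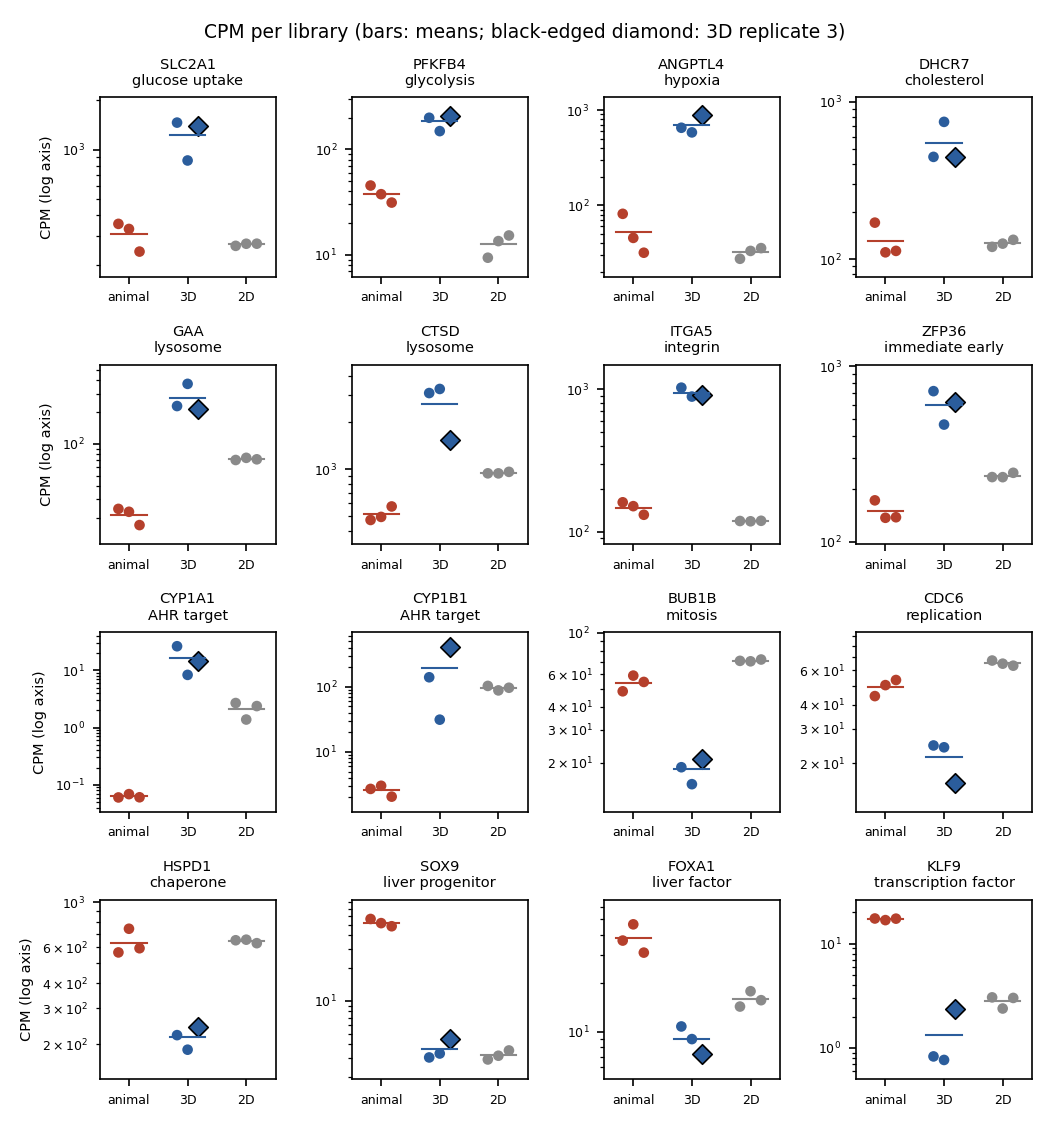
Level of 16 named genes in each library, in CPM on a log axis, with animal, 3D and 2D libraries from left to right, bars at the group mean and 3D replicate 3 as a black-edged diamond. No animal library overlaps a 3D library in any panel, as in 92.7% of all called genes. In the CYP1B1 panel 3D replicate 3 is the highest at 409 CPM.

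Secreted liver proteins leaned to the animal side. Of 19 tested members, 11 were called higher and 10 held, or 52.6% against 15.3% of all tested genes. APOA1, APOE and RBP4 were called lower and did not hold. Over the 19 genes the median log2 fold change was 2.08, 2.45 against 3D replicate 3 and 2.04 after the GC and length offset. It was the same with the member at 0 reads in 3D set to its bound. Of the 10 held members, 1 was highest in animal replicate 1, 4 in replicate 2 and 5 in replicate 3. Of the secreted liver proteins, 3 were called lower with all libraries, but 1 without 3D replicate 1, animal replicate 3 or any 1 2D library.

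ALB, albumin, had 116, 91.8 and 286 CPM in the animal libraries, against 4.30, 1.96 and 1.68 CPM in the 3D libraries. It was 62.4-fold higher (log2 5.96, SE 0.58, adjusted p = 0.000404 in edgeR) and 97.4-fold higher than 3D replicate 3 (adjusted p = 0.00140). TF, the iron carrier transferrin, had 240.4, 100.2 and 92.6 CPM in the animal libraries, against 3.55, 1.33 and 1.37 CPM in the 3D libraries, and was 69.7-fold higher (adjusted p = 0.000404). Each animal library exceeded each 3D library by more than 10-fold for both genes, with the highest ALB in animal replicate 3 and the highest TF in animal replicate 1. FGG, a fibrinogen chain, had 6.38, 24.1 and 7.46 CPM in the animal libraries, against 0.679, 0.489 and 0.683 CPM in the 3D libraries, and was 20.2-fold higher (adjusted p = 0.00118). SERPINC1, antithrombin, had 1.20, 7.70 and 2.49 CPM in the animal libraries and 0 reads in the 3D libraries, at least 18.3-fold higher.

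Enzymes of hepatocyte metabolism were higher in part, with 9 of 21 held higher and 2 held lower. That is 42.9% and 9.52% of them, against 15.3% and 15.5% of all tested genes. Their median log2 fold change was 0.19, or 0.98 against 3D replicate 3. CPS1, the first enzyme of the urea cycle, had 6.56, 7.91 and 6.73 CPM in the animal libraries, against 0.151, 0.209 and 0.435 CPM in the 3D libraries, and was 25.4-fold higher (adjusted p = 0.000752 in edgeR). The groups did not overlap, and every animal library lay below 10 CPM. ASL, of the urea cycle, and UGT1A1, which conjugates bilirubin, were the members that held lower.

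Of 15 liver transcription factors, 5 held higher and 1 lower, with a median log2 fold change of 0.31. That is 33.3% and 6.67% of them, against 15.3% and 15.5% of all tested genes. FOXA1, a pioneer factor of liver genes, had 37.0, 46.6 and 31.1 CPM in the animal libraries, against 10.8, 9.01 and 7.26 CPM in the 3D libraries, and was 4.24-fold higher (adjusted p = 0.000766 in edgeR). ONECUT2, a factor of early liver cells, had 9.33, 19.7 and 16.4 CPM in the animal libraries, against 1.28, 0.838 and 2.98 CPM in the 3D libraries, and was 8.79-fold higher (adjusted p = 0.00197). FOXA2, a relative of FOXA1, held lower (log2 -1.24, or -0.73 against 3D replicate 3). Among 11 oncofetal and liver cancer markers, 2 held higher and 2 lower, or 18.2% in each direction, near the 15.3% and 15.5% of all tested genes. SOX9, a factor of bile duct and progenitor cells, had 56.3, 51.6 and 48.3 CPM in the animal libraries, against 3.02, 3.28 and 4.47 CPM in the 3D libraries, and was 14.5-fold higher (adjusted p = 0.000179). The 2D libraries, at 3.18 ± 0.306 CPM (SD), were level with 3D. AFP, alpha-fetoprotein, had 6.56, 5.09 and 16.4 CPM in the animal libraries, against 2.42, 1.26 and 0.683 CPM in the 3D libraries, and was 6.47-fold higher (adjusted p = 0.00678), not called after the GC and length offset (log2 1.27). GPC1, a heparan sulfate proteoglycan, and MDK, the growth factor midkine, were 5.95-fold and 3.12-fold lower (adjusted p = 0.00263 and 0.00417), and MDK was not called after the offset (log2 -0.21). Among the liver transcription factors, 5 were called higher with all libraries, but 9 without 3D replicate 3. Of the liver transcription factors, 2 were called lower with all libraries, but 1 without 3D replicate 1, 3D replicate 2, any 1 2D library or any 1 animal library and 4 without 3D replicate 3. For the oncofetal and liver cancer markers, 2 were called lower with all libraries, but 5 without 3D replicate 3.

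Markers of other cell types were looked at because removal of host reads is not stated in the labels. Of 10 tested fibroblast and pericyte markers, 6 held higher and 3 lower, or 60% and 30%, against 15.3% and 15.5% of all tested genes. COL1A1, the main collagen of fibroblasts, had 119.7, 247 and 60.3 CPM in the animal libraries, against 1.06, 0.489 and 1.06 CPM in the 3D libraries, and was 162-fold higher (adjusted p = 0.000317 in edgeR). COL3A1 had 25.9, 66.5 and 17.9 CPM in the animal libraries, against 0.604, 0.489 and 0.497 CPM in the 3D libraries, and was 68.6-fold higher (adjusted p = 0.000374). All 6 held higher markers were highest in animal replicate 2. The summed level over the 18 markers was 225 to 557 CPM in the animal libraries and 367 to 437 CPM in the 3D libraries. FBLN1, a matrix glycoprotein, had 39.2, 41.0 and 22.5 CPM in the animal libraries, against 253, 314 and 161 CPM in the 3D libraries, held lower and on average made most of the 3D sum. Without it the other 17 markers summed to 203 to 516 CPM in the animal and 95.8 to 276 CPM in the 3D libraries. Of the 18, THY1 was at 0 reads in the animal libraries, and POSTN, FAP and DES at 0 in the 3D libraries.

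Of 21 macrophage and leukocyte markers, 8 were tested, 4 held higher and 2 lower. Those are 50% and 25% of the 8 tested, against 15.3% and 15.5% of all tested genes. CD74, the invariant chain of class II antigen presentation, had 22.6, 24.3 and 18.6 CPM in the animal libraries, against 6.72, 9.01 and 3.29 CPM in the 3D libraries, and was 3.45-fold higher (adjusted p = 0.00619 in edgeR). LYZ, lysozyme, had 2.47, 9.29 and 5.70 CPM in the animal libraries, against 0.0755, 0 and 0.0621 CPM in the 3D libraries, and its ratio of pooled reads was 124 (exact Clopper-Pearson 95% interval 33.9 to 1027). CD68, a lysosomal membrane protein, was 2.74-fold lower, at 155 ± 36.3 CPM in the animal libraries and 427 ± 42.2 CPM in the 3D libraries (SD, n = 3 each). HLA-DRA, MS4A1 and S100A8 had 0 reads in all 6 libraries, and PTPRC, the pan-leukocyte marker, had 35 reads in the animal and 15 in the 3D libraries. The summed level of the 21 was 171 to 223 CPM in the animal and 396 to 477 CPM in the 3D libraries, and CD68 made most of it. Without CD68 the other 20 summed to 45.1 to 57.3 CPM in the animal and 18.1 to 24.2 CPM in the 3D libraries. Of the macrophage and leukocyte markers, 2 were called lower with all libraries, but 1 without animal replicate 1.

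Of 15 endothelial markers 5 were tested. KDR and TEK, receptors of vessel growth factors, held higher, at 10.8-fold for KDR (adjusted p = 0.00331 in edgeR), and none held lower. The share held higher was 40% of the 5, against 15.3% of all tested genes. KDR had 4.27, 4.61 and 15.3 CPM in the animal libraries, against 1.13, 0.419 and 0.683 CPM in the 3D libraries. EMCN and PLVAP had 0 reads in all 6 libraries, and the summed level of the list was 51.2 to 70.5 CPM in the animal and 73.1 to 126 CPM in the 3D libraries. ESAM, a junctional adhesion molecule, made most of that sum, and without it the other 14 summed to 10.9 to 20.7 CPM in the animal and 4.61 to 5.24 CPM in the 3D libraries. Red blood cell markers summed to 0.788 to 6.40 CPM in the animal and 0.279 to 0.981 CPM in the 3D libraries, and fat and muscle markers to 25.7 to 39.3 CPM in the animal and 37.1 to 139 CPM in the 3D libraries. The fat and muscle sum was mostly CIDEC, and the markers other than CIDEC came to 5.09 to 6.79 CPM in the animal and 8.01 to 23.9 CPM in the 3D libraries. HBB was called higher and CIDEC and ACTA1 lower, and none of the 3 calls held. The part of other cells in the results for liver, matrix and inflammatory genes was not tested. ALB and AFP were highest in animal replicate 3, while FGG, like the collagens, was highest in animal replicate 2. Among the endothelial markers, 1 was called lower with all libraries, but 0 without 3D replicate 1, animal replicate 2 or animal replicate 3.

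**Figure D5:**
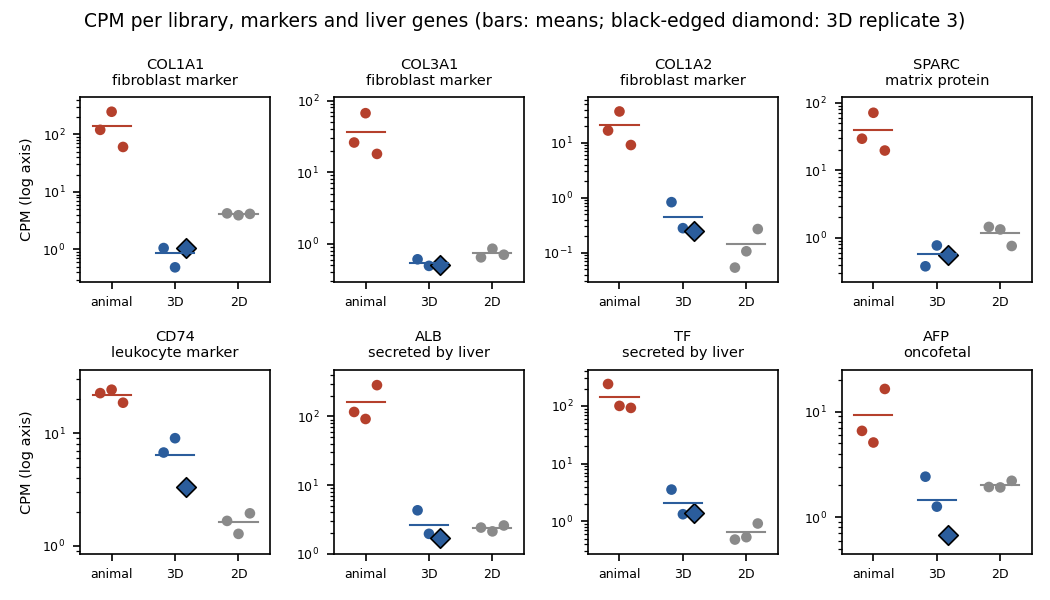
Level of 8 genes in each library, in CPM on a log axis, with animal, 3D and 2D libraries from left to right, bars at the group mean and 3D replicate 3 as a black-edged diamond. The collagens and SPARC peak in animal replicate 2, ALB and AFP in animal replicate 3 and TF in animal replicate 1.

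Genes of the extracellular matrix and its receptors changed in both directions. Of 20 integrins and laminins, 7 held lower and 4 higher. That is 35% and 20% of them, against 15.5% and 15.3% of all tested genes. ITGA5, the fibronectin receptor subunit, had 161, 151 and 131 CPM in the animal libraries, against 1027, 889 and 906 CPM in the 3D libraries. It was 6.38-fold lower (log2 -2.67, SE 0.17, adjusted p = 0.000179 in edgeR) and 6.18-fold lower than 3D replicate 3. ITGB4, of hemidesmosomes, had 449, 392 and 355 CPM in the animal libraries, against 1455, 1761 and 1519.9 CPM in the 3D libraries, and was 3.96-fold lower (adjusted p = 0.000338). For ITGA5 the 2D libraries had 119 ± 0.475 CPM (SD), near the animal level. ITGB6, an activator of TGF-beta, had 18.8, 50.4 and 6.12 CPM in the animal libraries, against 0.528, 0.0698 and 2.30 CPM in the 3D libraries, and was 25.3-fold higher (adjusted p = 0.00840). Its relative ITGB8 was 37.1-fold higher (adjusted p = 0.00108). For the integrins and laminins, 5 were called higher with all libraries, but 2 without animal replicate 1 or animal replicate 2, 3 without 3D replicate 1 or animal replicate 3 and 11 without 3D replicate 3.

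Of 19 genes of mesenchymal transition, 6 held lower and 3 higher. That is 31.6% and 15.8% of them, against 15.5% and 15.3% of all tested genes. With all 3D libraries, 6 of the mesenchymal genes were called higher and 6 lower, and after the GC and length offset 9 and 6. Their median log2 fold change was 0.59, or 0.20 against 3D replicate 3 and 0.51 after the offset. TGFB1, the growth factor TGF-beta 1, had 259, 138 and 178 CPM in the animal libraries, against 1335, 1373 and 758 CPM in the 3D libraries, and was 6.03-fold lower (adjusted p = 0.000768 in edgeR). LOXL2, which crosslinks collagen, had 52.6, 29.8 and 31.3 CPM in the animal libraries, against 137, 122 and 185 CPM in the 3D libraries, and was 3.90-fold lower (adjusted p = 0.00132). Fibronectin, FN1, had 4992, 6583 and 3489 CPM in the animal libraries, against 9969, 14250.5 and 16266 CPM in the 3D libraries, and also held lower. SPARC, a matrix protein made by fibroblasts and some tumor cells, had 29.3, 71.0 and 19.6 CPM in the animal libraries, against 0.377, 0.768 and 0.559 CPM in the 3D libraries, and was 69.1-fold higher (adjusted p = 0.000443). It was highest in animal replicate 2, as the collagens were. Among 14 matrix proteases and inhibitors, 4 held lower and 3 higher, or 28.6% and 21.4%. The protease inhibitors TIMP2 and TIMP3 were 5.22-fold and 3.86-fold lower (adjusted p = 0.000497 and 0.00252), and PLAU, urokinase, was 2.35-fold higher (adjusted p = 0.0111). Of the matrix proteases, 4 were called lower with all libraries, but 7 without 3D replicate 3.

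Of 17 YAP and TEAD targets, which respond to cell stretch and density, 3 held higher and 2 lower. That is 17.6% and 11.8% of them, near the 15.3% and 15.5% of all tested genes. The median log2 fold change was 0.39, or -0.03 against 3D replicate 3. The receptor kinase AXL had 47.1, 33.3 and 55.0 CPM in the animal libraries, against 191, 121 and 182 CPM in the 3D libraries, and was 3.64-fold lower (adjusted p = 0.00121 in edgeR). WWC1, the Hippo pathway protein KIBRA, was 2.65-fold higher (adjusted p = 0.00695). CCN2, a classical target, had 24.3, 34.6 and 16.5 CPM in the animal libraries, against 17.3, 10.9 and 11.5 CPM in the 3D libraries, and its call (log2 0.92, adjusted p = 0.0382) ended in 10 of 19 alternatives. Among the YAP and TEAD targets, 3 were called higher with all libraries, but 1 without animal replicate 1, animal replicate 2 or any 1 2D library and 8 without 3D replicate 3.

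Of 23 epithelial genes, 5 held higher and 4 lower. That is 21.7% and 17.4% of them, near the 15.3% and 15.5% of all tested genes. CLDN1, a tight junction claudin, had 40.5, 69.0 and 50.2 CPM in the animal libraries, against 13.4, 5.38 and 14.7 CPM in the 3D libraries, and was 4.77-fold higher (adjusted p = 0.00291 in edgeR). CEACAM5, the carcinoembryonic antigen, had 227, 668 and 187 CPM in the animal libraries, against 119.6, 87.6 and 73.5 CPM in the 3D libraries, and was 3.85-fold higher (adjusted p = 0.0108). Animal replicate 2 was the highest for both. MUC1, a membrane mucin, had 35.8, 61.4 and 19.9 CPM in the animal libraries, against 244, 121 and 252 CPM in the 3D libraries, and was 5.28-fold lower (adjusted p = 0.00347), a call that ended under the GC and length offset. Of 15 mucosal secretory genes, 5 held lower and 3 higher. That is 33.3% and 20% of them, against 15.5% and 15.3% of all tested genes. DUOX2, an oxidase that makes hydrogen peroxide, had 9.33, 16.1 and 3.94 CPM in the animal libraries, against 40.01, 60.8 and 66.2 CPM in the 3D libraries, and was 5.69-fold lower (adjusted p = 0.00407). PIGR, which carries antibodies across epithelia, had 43.8, 22.0 and 43.5 CPM in the animal libraries, against 1.59, 1.40 and 1.49 CPM in the 3D libraries, and was 24.3-fold higher (adjusted p = 0.000548). Both were low in 2D, at 0.589 ± 0.0964 CPM and 0.142 ± 0.153 CPM (SD). For the epithelial genes, 5 were called higher with all libraries, but 3 without animal replicate 2 and 9 without 3D replicate 3. Of the epithelial genes, 6 were called lower with all libraries, but 3 without animal replicate 1 or animal replicate 3.

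Of 20 inflammatory genes of the NF-kB pathway, 4 held higher and 2 lower. That is 20% and 10% of them, near the 15.3% and 15.5% of all tested genes. The neutrophil chemokine CXCL5 had 36.5, 106 and 71.6 CPM in the animal libraries, against 12.3, 6.84 and 9.68 CPM in the 3D libraries, and was 7.42-fold higher (adjusted p = 0.00139 in edgeR). IL1A, an alarm cytokine, had 9.27, 4.54 and 3.88 CPM in the animal libraries, against 1.28, 0.559 and 1.99 CPM in the 3D libraries, and was 4.58-fold higher (adjusted p = 0.00969). Of 22 interferon response genes, 4 held higher and 3 lower, or 18.2% and 13.6%, again near the shares over all genes. IFI27 had 15.5, 11.6 and 9.40 CPM in the animal libraries, against 4.61, 4.05 and 2.42 CPM in the 3D libraries, and was 3.30-fold higher (adjusted p = 0.0110), whereas OASL had 10.8, 9.15 and 10.6 CPM in the animal libraries, against 50.1, 58.8 and 25.6 CPM in the 3D libraries, and was 4.40-fold lower (adjusted p = 0.00158). The list's median log2 fold change was -0.14. Class I antigen presentation held lower in 4 and higher in 2 of 12 members, or 33.3% and 16.7%. TAPBP, the loading chaperone tapasin, was 2.86-fold lower and NLRC5, the class I transactivator, 2.84-fold higher (adjusted p = 0.000565 and 0.0108). Reads of HLA-C, 3.06-fold lower (adjusted p = 0.000898), can be shared with other class I genes. Of the inflammatory genes, 4 were called lower with all libraries, but 1 without animal replicate 2 or animal replicate 3 and 2 without animal replicate 1. Among the interferon response genes, 5 were called higher with all libraries, but 3 without any 1 animal library. Of the interferon response genes, 6 were called lower with all libraries, but 3 without 3D replicate 1, animal replicate 1 or animal replicate 3 and 10 without 3D replicate 3. For the class I genes, 2 were called higher with all libraries, but 1 without 3D replicate 1, animal replicate 1, animal replicate 3 or any 1 2D library.

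Complement and coagulation factors held lower in 6 and higher in 3 of 19 members. That is 31.6% and 15.8% of them, against 15.5% and 15.3% of all tested genes. F10, coagulation factor X, had 0.361, 0.344 and 0.182 CPM in the animal libraries, against 8.38, 6.98 and 7.39 CPM in the 3D libraries, and was 25.1-fold lower (adjusted p = 0.000404 in edgeR). CFD, the complement protease factor D, had 2.83, 2.41 and 1.52 CPM in the animal libraries, against 37.3, 36.7 and 20.7 CPM in the 3D libraries, and was 14.0-fold lower (adjusted p = 0.000369). The complement regulator CFI had 12.6, 29.4 and 8.85 CPM in the animal libraries, against 0.528, 0.908 and 2.30 CPM in the 3D libraries, and was 13.4-fold higher (adjusted p = 0.00280). None of these overlapped between the groups. Of 12 glucocorticoid targets, 2 held higher and 2 lower, or 16.7% in each direction, near the shares over all genes. KLF9 had 17.4, 16.8 and 17.3 CPM in the animal libraries, against 0.830, 0.768 and 2.36 CPM in the 3D libraries, and was 12.8-fold higher (adjusted p = 0.000761), while TSC22D3, also called GILZ, had 42.9, 43.3 and 43.3 CPM in the animal libraries, against 162, 84.9 and 116 CPM in the 3D libraries, and was 2.80-fold lower (adjusted p = 0.00237). Of the complement and coagulation genes, 3 were called higher with all libraries, but 7 without 3D replicate 3. Among the glucocorticoid targets, 2 were called higher with all libraries, but 4 without 3D replicate 3.

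In several lists many of the calls made with all 3D libraries did not hold. Of 28 ribosomal protein genes, 16 were called lower and 9 held, or 32.1% against 15.5% of all tested genes. The median log2 fold change was -0.91 with all 3D libraries but -0.11 against 3D replicate 3. RPL10 had 718, 725 and 666 CPM in the animal libraries, against 3124, 2169 and 1150.3 CPM in the 3D libraries, and was 3.06-fold lower, or 1.65-fold against 3D replicate 3 (adjusted p = 0.00540 and 0.000699 in edgeR). Ribosomal protein genes have near-identical pseudogenes, so their counts are uncertain. Of 22 nuclear genes of oxidative phosphorylation, 10 were called lower and 3 held, with 3 held higher and medians of -0.62 and 0.03. The held shares, 13.6% in each direction, were near the 15.5% and 15.3% of all tested genes. NRF2 targets of the oxidative stress response had 9 of 19 called lower and 1 held, with 2 held higher, both below the shares over all genes. The held one, the heme oxygenase HMOX1, had 82.5, 111 and 60.01 CPM in the animal libraries, against 459.9, 623 and 231 CPM in the 3D libraries, and was 5.19-fold lower (adjusted p = 0.00206). TXNRD1 and GCLM, which held higher, turned sign after the GC and length offset. By contrast, of 12 metallothionein and iron genes 3 were called lower and all 3 held, or 25% against 15.5% of all tested genes. Among them were FTH1 and FTL, the ferritin chains, at 2.12-fold and 1.70-fold lower than 3D replicate 3. For the ribosomal proteins, 0 were called higher with all libraries, but 1 without 3D replicate 3. Of the ribosomal proteins, 16 were called lower with all libraries, but 7 without 3D replicate 1, animal replicate 1 or animal replicate 2 and 8 without animal replicate 3. Of the oxidative phosphorylation genes, 10 were called lower with all libraries, but 3 without 3D replicate 1, animal replicate 1 or animal replicate 3, 5 without animal replicate 2, 6 without 3D replicate 2 and 17 without 3D replicate 3. Among the NRF2 targets, 2 were called higher with all libraries, but 0 without any 1 2D library or any 1 animal library, 1 without 3D replicate 1 or 3D replicate 2 and 6 without 3D replicate 3. Of the NRF2 targets, 9 were called lower with all libraries, but 1 without any 1 animal library, 2 without 3D replicate 1 and 3 without 3D replicate 2. For the metallothionein and iron genes, 0 were called higher with all libraries, but 4 without 3D replicate 3. Of the metallothionein and iron genes, 3 were called lower with all libraries, but 5 without 3D replicate 3.

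Splicing factors showed the opposite pattern. Of 21 members, 10 were called higher and 9 held, or 42.9% against 15.3% of all tested genes. But the median log2 fold change of 0.82 with all 3D libraries was 0.37 against 3D replicate 3 and -0.14 after the GC and length offset. After the offset, 3 of the 9 held members were still called higher, and over the list 3 were higher and 3 lower. In a fit of the 6 animal and 3D libraries alone, 2 were called higher. Of the 9 held, 7 were highest in animal replicate 2. SRSF1 had 292, 324 and 308 CPM in the animal libraries, against 91.0, 73.7 and 153 CPM in the 3D libraries, and was 2.91-fold higher (adjusted p = 0.00291 in edgeR). HNRNPA2B1, SRSF7 and SRSF10 turned sign after the offset. Of the splicing factors, 10 were called higher with all libraries, but 4 without animal replicate 2, 6 without 3D replicate 1 or animal replicate 3 and 18 without 3D replicate 3. In that last fit, 5596 of all 13151 tested genes were called higher.

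Among the genes named because their levels in 3D replicate 3 parted most from the other 3D libraries, SRM, the spermidine synthase, had 79.3, 84.3 and 114 CPM in the animal libraries, against 405, 371 and 68.2 CPM in the 3D libraries. It was called lower with all 3D libraries (log2 -1.60, adjusted p = 0.0398 in edgeR), while against 3D replicate 3 its log2 fold change was 0.43 (adjusted p = 0.0980). AKR1B1, an aldose reductase, had 349, 301 and 383 CPM in the animal libraries, against 1674, 2409 and 384 CPM in the 3D libraries. NDUFS8, of respiratory complex I, had 49.3, 46.5 and 54.4 CPM in the animal libraries, against 224, 264 and 48.7 CPM in the 3D libraries. In each of these 3D replicate 3 lay at or near the animal range and far below the other 3D libraries. The proline enzyme PYCR3 and C20orf27 had the same pattern, with log2 fold changes of 0.11 and -0.15 against 3D replicate 3, in place of -1.90 and -1.99. On the higher side, LBR, a protein of the inner nuclear membrane, had 73.4, 89.6 and 83.3 CPM in the animal libraries, against 29.8, 19.2 and 64.9 CPM in the 3D libraries, and its log2 fold change was 1.11 with all 3D libraries and 0.33 against 3D replicate 3 (adjusted p = 0.0450 and 0.0518). MTTP, which loads lipid onto lipoproteins, had 164, 80.7 and 148 CPM in the animal libraries, against 26.5, 24.8 and 68.0 CPM in the 3D libraries, and was 3.29-fold higher (adjusted p = 0.0139), or 1.92-fold against 3D replicate 3 (adjusted p = 0.0757). SPTSSB, TACC1, NRDC and TRIP12 likewise had smaller fold changes against 3D replicate 3, of 0.29, 0.44, 0.25 and 0.30, and were not called there.

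The largest held rises, ranked by the smaller of a gene's changes in both fits, were of genes nearly absent from the 3D libraries. The rule asked for a mean of at least 10 CPM in the higher group, no overlap between animal and 3D libraries and the largest change. It favors near absence in the lower group, in either direction. PDE4B, a cAMP phosphodiesterase, had 17.2, 13.1 and 8.49 CPM in the animal libraries and 0 reads in the 3D and 2D libraries, at least 62.2-fold higher. HAPLN1, a hyaluronan link protein, had 20.04, 8.74 and 3.39 CPM in the animal libraries and likewise 0 reads in 3D and 2D, at least 51.7-fold higher. ROS1, a receptor kinase, had 15.5, 11.8 and 17.3 CPM in the animal libraries, against 0, 0.0698 and 0.0621 CPM in the 3D libraries, and its ratio of pooled reads was 327 (exact Clopper-Pearson 95% interval 90.3 to 2707). In ROS1 and DCDC2, a doublecortin family gene of cilia, the animal libraries were close to each other, with 14.6, 20.4 and 19.4 CPM for DCDC2 in the animal libraries against 0.151, 0 and 0.0621 CPM in the 3D libraries.

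NNMT, which methylates nicotinamide, had 6.14, 40.6 and 6.61 CPM in the animal libraries, against 0.0755, 0 and 0 CPM in the 3D libraries, with animal replicate 2 far above the others. ADH1C, an alcohol dehydrogenase of liver, had 12.3, 43.96 and 15.8 CPM in the animal libraries, against 0.0755, 0.0698 and 0 CPM in the 3D libraries, again highest in animal replicate 2. ACSS3, a mitochondrial acyl-CoA synthetase, had 14.9, 25.8 and 31.9 CPM in the animal libraries, against 0, 0 and 0.0621 CPM in the 3D libraries, and LIN7A, a polarity scaffold, had 22.5, 19.2 and 33.7 CPM in the animal libraries, against 0.0755, 0 and 0.0621 CPM in the 3D libraries. For the last pair animal replicate 3 was the highest, and the ratios of pooled reads were 1053 (189 to 41635) and 554 (153 to 4581). The same rule named GIPC2, PPP4R3C, RTL1 and COL1A1, and RTL1, an imprinted retrotransposon-derived gene, had 9.33, 19.1 and 3.27 CPM in the animal libraries, against 0, 0 and 0.0621 CPM in the 3D libraries.

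The largest held falls were picked by the same rule, so low levels in the animal libraries were favored there. CACNG7, a calcium channel subunit, had 0.0602, 0 and 0.485 CPM in the animal libraries, against 44.2, 55.2 and 33.5 CPM in the 3D libraries, and was 228-fold lower (adjusted p = 0.000374 in edgeR). SOX18, a vessel transcription factor, had 0.963, 2.89 and 0.606 CPM in the animal libraries, against 47.7, 212 and 58.8 CPM in the 3D libraries, and was 72.0-fold lower (adjusted p = 0.00126). EEF1A2, a translation elongation factor, had 4.94, 8.46 and 6.43 CPM in the animal libraries, against 353, 452 and 157 CPM in the 3D libraries, and was 48.5-fold lower, or 24.0-fold against 3D replicate 3 (adjusted p = 0.000295 and 2.41e-05). The rule admitted only genes whose animal and 3D libraries did not overlap. GLI2, an effector of Hedgehog signaling, had 0.120, 1.03 and 0.485 CPM in the animal libraries, against 18.3, 20.3 and 15.3 CPM in the 3D libraries, and was 33.1-fold lower (adjusted p = 0.000536), and the 2D libraries were the highest, at 34.8 ± 1.67 CPM (SD). MN1, a transcriptional coregulator, had 1.93, 2.41 and 0.909 CPM in the animal libraries, against 38.7, 33.7 and 45.3 CPM in the 3D libraries, and was 22.4-fold lower (adjusted p = 0.000298). STAC, a channel adaptor, had 3 reads over the animal libraries, and its ratio of pooled reads was 194 to the 3D side (exact Clopper-Pearson 95% interval 66.0 to 943). ADGRF1, PRRX2, LIMS2 and CAMK2B also belonged to this group, with log2 fold changes against 3D replicate 3 of -7.28, -4.63, -4.50 and -4.49.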

How the data were processed

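The labels' protocols describe column-purified RNA whose mRNA was fragmented, copied from random hexamers and sequenced as short single-end reads, and they mention no strand marking. The submitters' processing notes name HISAT2 and the hg19 build. The counting program, annotation, strand setting and removal of host reads are not given in the sources used here. The authors deposited whole-number counts, 1 line per symbol, without normalization. The table has 19143 genes, 1443 of them at 0 in every library, and 27 symbols turned into dates, which hold 0.168% of counts and were kept but never named.

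All tests used edgeR 4.0.16 under R 4.3.3, with filterByExpr by group, TMM scaling and a robust quasi-likelihood test on 9 libraries, with group as the only term and Benjamini-Hochberg adjustment over all tested genes. The fit was repeated on 7 libraries, without 3D replicates 1 and 2. CPM use the TMM factors. A gene at 0 in a group was set against 3 reads per library. For a group with 1 to 3 reads summed over its libraries, the text gives a pooled ratio with a Clopper-Pearson 95% interval that covers counting error only. Transcript GC content and length came from GENCODE 29, for 99.4% of tested genes. The offset used splines with 5 degrees of freedom. The methods were tested on simulated counts.

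The members and the 41 gene lists (35 of pathways, 6 of cell types) were chosen with earlier results of these data known. Of 804 list entries 793 matched, and the other 11 are not analysed here. Named genes were the 12 largest held changes per direction with a mean of at least 10 CPM and no overlap, up to 4 held members per list with the largest change, 6 called but not held genes per direction with a mean of at least 50 CPM, and SP1, IL4I1, AHR and NUP62. Held changes were ranked by the smaller of the 2 fits' absolute log2 fold changes. Some of these genes are not reported here. Genes outside that rule were chosen after their values were seen: KRT8, KRT18, KRT19, EPCAM, HNF4A, VEGFA, PGK1, HSPA1A, PTGES2, FN1, FOXA2, CD68, FBLN1, the glycolysis members not called and members named without values. The alternatives were DESeq2 1.42.0, other scalings and filters, the replicate block, only 6 libraries, a fold threshold of 2, the offset, and leaving out libraries.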

Additional observations from a re-analysis of the deposited data

How the results depend on the processing

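The counts of called and held genes stayed within 1.5 times under DESeq2, both other scalings, both other filters, the GC and length offset and, where it applies, the fit without 3D replicates 1 and 2. Under the offset 1978 higher and 2017 lower genes held, but 1358 and 1374 of the genes held without it were still called. With only the 6 animal and 3D libraries, 996 genes were called higher and 1750 lower, and 798 and 1213 held. That fit tested 12693 genes and estimated the spread without the 2D libraries. What moved the counts was not tested. With a fold threshold of 2, 913 higher and 1021 lower genes held. Leaving out single libraries gave 1377 to 5596 higher, 1943 to 4536 lower and 1295 to 1971 held higher genes. The high ends of the called counts came without 3D replicate 3 and that of the held count without 3D replicate 2, the low ends without 3D replicate 1 (higher, held higher) and animal replicate 3 (lower, with 1944 without animal replicate 1), and omission of any animal library gave 1537 to 1556 higher genes. Upper-quartile and median-ratio scaling moved the median log2 fold change of all genes from 0.10 to 0.21 and 0.00.

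With the replicate block, 2250 genes were higher and 2387 lower, and 1619 and 1611 held. Same-numbered animal and 3D libraries did not deviate together (correlations of -0.06, -0.03 and -0.09). With 3 libraries per group and the GC dependence of 3D replicates 1 and 2, these values cannot tell whether the numbers pair the samples.

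Of 166 held genes named by the rule, 129 kept their call under all 19 alternatives that could be fitted, and 23 lost it under the GC and length offset, the cause of which was not tested. Signs turned under that offset for SYVN1 (0.18), TXNRD1 (-0.0340), GCLM (-0.94), HNRNPA2B1 (-0.28), SRSF7 (-0.24), SRSF10 (-0.27), LBR (-0.28), TRIP12 (-0.16), SRM (0.0273), SP1 (-0.51) and NUP62 (0.51). Without 3D replicates 1 and 2 they turned for SRM (0.43), PYCR3 (0.11), NDUFS8 (0.0320), GPX2 (0.40), SP1 (-0.36) and NUP62 (0.47). Leaving out single libraries gave SP1 -0.0622 to 0.44 and NUP62 -0.49 to 0.0564. Among genes near the threshold, MT1X and TAP2 each lost their call in 11 alternatives.

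Limits are the 3 libraries per group, the spread in the 9-library fit, which is partly that of the close 2D libraries (chi-square per degree of freedom 2.49 to 3.09 between pairs, against 17.5 to 32.3 for animal and 69.6 to 441 for 3D pairs), the unstated handling of host reads, and low counts for genes absent from 1 model.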
